A study of Mus musculus with 10 samples.

Results

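Messenger RNA from mouse testis and from mouse Sertoli cells was sequenced in wild-type and *Rnf20* conditional knockout animals, and the genes described here are those of the cytoplasmic ribosomal proteins with their paralogs. Members were taken by gene symbol, as Rpl or Rps followed by a digit, or *Rplp1* or *Rplp2*, leaving out the *Rps6k* kinases and pseudogenes marked -ps. The rule found 87 of the 20007 genes of the adult table and the same number of the 17816 genes of the day 7 table. Of these, 75 were canonical genes, 45 of the large and 30 of the small subunit, 11 were paralogs, and 1, *Rps19bp1*, encodes a binding partner of a ribosomal protein. *Rplp0*, *Rpsa* and *Fau*, which encode ribosomal proteins under other names, fall outside the rule and are given beside it.

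The adult table held 6 samples of whole testis, 3 labelled wild type and 3 labelled *Rnf20* conditional knockout. The day 7 table held 4 samples of Sertoli cells, the somatic cells that nurse germ cells in the seminiferous tubules, taken 7 days after birth, 2 labelled wild type and 2 labelled *Rnf20* conditional knockout. In the study's methods the day 7 controls are *Rnf20* Flox/Flox mice, which carry loxP sites in *Rnf20*, and the knockouts are *Amh-Rnf20-/-* mice, in which Cre recombinase is driven by the *Amh* promoter of Sertoli cells. The floxed alleles are thus shared by both day 7 groups, the cells were cultured and passaged before use, and the adult experiment is known here from its labels alone, which give no exact age, Cre driver or strain. The growth label of every sample, those of day 7 included, reads adult tissue, and the age of the Sertoli cells was taken from their titles and the methods. The question of the design was which genes change when RNF20, the E3 ubiquitin ligase of histone H2B, is removed from Sertoli cells. The methods name 3 individuals per day 7 group, the labels do not say that samples came from separate animals, and the p-values therefore measure a spread between samples that may be technical.

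Every ribosome holds a single copy of nearly all of its proteins, and the canonical genes are among the most highly transcribed genes of most cells. Many of their mRNAs start with a run of pyrimidines, the 5′ TOP motif, through which the kinase mTOR and the protein LARP1 set their translation. A few canonical genes lie on the X chromosome, which is silenced during male meiosis, and autosomal copies such as *Rpl10l* and *Rpl39l* are known to be used by male germ cells.

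The autosomal copies differ from their X-linked parents by scattered substitutions, which is what lets reads tell them apart. *Rpl39* (chrX:37082518-37085222) and *Rpl39l* (chr16:10170197-10174911, both GRCm38.p6) encode a very small protein of the large subunit. Their coding sequences (GENCODE, GRCm38) are shown because the ratio of this pair differed most between the adult groups. Capitals mark the bases that differ.
Rpl39: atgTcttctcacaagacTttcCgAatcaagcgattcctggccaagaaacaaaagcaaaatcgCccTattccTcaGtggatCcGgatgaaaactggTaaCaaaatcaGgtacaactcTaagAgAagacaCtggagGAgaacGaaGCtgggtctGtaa
Rpl39l: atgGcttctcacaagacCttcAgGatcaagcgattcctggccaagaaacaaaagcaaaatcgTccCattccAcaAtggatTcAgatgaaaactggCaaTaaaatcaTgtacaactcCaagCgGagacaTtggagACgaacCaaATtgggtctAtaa
Of 156 bases, 133 were identical and 23 were substituted (85.3% identity), and the longest run shared by both was 38 bases. The longer pair *Rpl10* (chrX:74270816-74273135) and *Rpl10l* (chr12:66283379-66284401) had 547 identical bases of 645 (84.8%), with a longest shared run of 23 bases. *Rpl36al* was 87.9% identical to *Rpl36a*. At the other end, the coding sequence of *Rps27rt* on chromosome 9 was identical to that of *Rps27* over all 255 bases, so that its counts depend on how the authors' counting split reads between near-identical genes. Estimated counts that were not whole numbers, a sign of reads shared between genes, were found in 16 of the 75 canonical genes and in 3 of the 11 paralogs in each table.

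The proximal promoters of *Rpl10*, *Rpl10l* and *Rpl39l* are shown because the X-linked parent and the autosomal copies differed in opposite directions in adult testis. Each runs from 110 bases before to 20 bases from the transcript start that RefSeq's promoter entry uses (GRCm38.p6, gene strand). For *Rpl39l* this start lies inside the gene span given above and not at its first base. Capitals mark CTTTCC, a pyrimidine run of the kind found at 5′ TOP starts, or its reverse complement GGAAAG, a purine run on the gene strand. The stretch marked in *Rpl10l* is GGAAAG and lies away from the start.
Rpl10, chrX:74270706-74270835, plus strand: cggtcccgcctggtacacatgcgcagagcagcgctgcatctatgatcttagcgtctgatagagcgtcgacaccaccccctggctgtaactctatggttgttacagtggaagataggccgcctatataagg
Rpl10l, chr12:66284382-66284511, minus strand: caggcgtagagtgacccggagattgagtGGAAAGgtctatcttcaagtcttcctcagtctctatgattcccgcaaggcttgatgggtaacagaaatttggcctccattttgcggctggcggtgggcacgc
Rpl39l, chr16:10170118-10170247, plus strand: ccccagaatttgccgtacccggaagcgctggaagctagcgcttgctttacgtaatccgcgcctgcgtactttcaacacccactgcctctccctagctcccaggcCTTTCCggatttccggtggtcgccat
On the gene strand and from 10 bases before to 20 bases after the start, CTTTCC stood in 9 of 55 canonical promoters (16.4%), in 2 of 11 paralog promoters (18.2%, *Rpl39l* and *Rps27rt*) and in 1.52% of the 27025 promoters of the RefSeq table. Over the whole window of 250 bases before to 50 after the start and on both strands, CTTTCC was found in 49.1% of canonical, 54.5% of paralog and 29.3% of all promoters. The ETS-type motif CCGGAAGT was held by 18.2% of canonical promoters, by 1 paralog promoter (9.09%, *Rps27l*) and by 4.31% of all promoters. The cAMP response element TGACGTCA was held by 9.09% of canonical, none of the paralog and 2.03% of all promoters, and the YY1-type motif by 1.82%, none and 1.17%. The median promoter had 21 CpG dinucleotides in the canonical genes, 13 in the paralogs and 8 overall. A gene with several starts was counted once, when any of them matched. The bases just after the start were found in the GENCODE transcript used here for 43 of 80 entries of members, so the start is uncertain for the others. These are matches of letters only, and CTTTCC and CCGGAAGT can overlap on the same strand, where the end of one is the start of the other.

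Depth was 15431912 to 16574144 estimated counts per adult sample and 17477268 to 17705347 per day 7 sample. Levels are given as FPKM, fragments scaled by gene length and by library size, as deposited. Log2 fold changes are from edgeR's quasi-likelihood test on the estimated counts with TMM scaling, labelled knockout over wild type, and a gene was called when its adjusted p was under 0.05 over all genes tested, 15919 in adult testis and 12880 at day 7. All 75 canonical genes and 9 of the 11 paralogs were tested, *Rpl3l* and *Rps23rg1* being under the filter of FPKM 0.5. TMM factors were 0.710 to 0.761 in adult wild type and 1.27 to 1.42 in the adult samples labelled knockout, so that the median adult log2 fold change over all genes was 0.01 with TMM, 0.87 with total-count scaling and −0.19 with median-ratio scaling. A direction in adult testis is therefore given beside its total-count value where they differ in sign, and at day 7 the factors were 0.984 to 1.02.

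The targeted gene was looked at first. In adult testis *Rnf20* was at FPKM 4.89, 3.32 and 4.09 in wild type and at 9.16, 5.76 and 9.85 in the samples labelled knockout. In FPKM it was not lower in any sample labelled knockout, but its fitted direction depended on the scaling. The log2 fold change in edgeR was 0.12 with TMM (SE 0.27, adjusted p = 0.688) and 0.97 with total-count scaling (adjusted p = 0.0168). With median-ratio scaling it was −0.075 (adjusted p = 0.804, edgeR). Directions below are those of the labels. With TMM *Rnf20* was called higher without the second sample labelled knockout (0.59, adjusted p = 0.0339, edgeR). Without the second wild-type sample it was at −0.060 (adjusted p = 0.872, edgeR). In day 7 Sertoli cells *Rnf20* was at 16.64 and 16.01 in wild type and at 10.25 and 12.58 in knockout, without overlap (−0.49, SE 0.12, adjusted p = 0.222). These are counts over the whole gene, not over the floxed exons.

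The adult groups also differed in their cell types. Summed over its list, FPKM of 6 spermatid markers was 120451 to 188820 in wild type and 3.26 to 71.43 in the samples labelled knockout, and that of 6 spermatocyte markers was 4334 to 4504 against 1.71 to 420.54. Markers of Leydig cells were at 3994 to 5601 against 62976 to 87350, those of Sertoli cells at 59.63 to 76.85 against 110.04 to 468.06, those of macrophages at 5.60 to 8.16 against 151 to 220, and those of peritubular cells at 23.5 to 37.8 against 176 to 362. In the first sample labelled knockout the Sertoli markers were split: *Gata4* (FPKM 53.51), *Wt1* (17.94) and *Amh* (1.70) were above every wild-type sample, *Sox9*, *Fshr*, *Dhh* and *Rhox5* were below every one, and *Cldn11* lay within their range. *Rhox5* was lower in all 3 samples labelled knockout, at 0.34, 0.34 and 1.41 against 16.64 to 20.75. The 6 spermatogonium markers were at 87.27 to 107.14 in wild type, and the samples labelled knockout lay on both sides of that range (47.19, 280.81 and 405.70). In the day 7 cells, labelled Sertoli, the 8 Sertoli markers summed to 482 to 502 in wild type and to 165.10 and 370.71 in knockout. *Cldn11* had the largest values in wild type, at 228.89 and 213.74 against 14.01 and 150.35. *Sox9*, *Wt1*, *Amh*, *Gata4* and *Dhh* were also lower in both knockout samples. *Fshr* overlapped (2.16 and 1.59 against 0.36 and 1.87), and *Rhox5* was higher (0.32 and 0.22 against 0.64 and 0.54). The 4 peritubular markers summed to more than the Sertoli markers in every sample, at 1841 to 1936 against 3366 to 3462. Spermatocyte markers were at 13.64 to 17.64 in the day 7 wild type against 8.61 to 11.07 in knockout, and spermatogonium markers at 193 to 202 against 134 to 140. Leydig markers were at 149 to 156 in wild type against 205 to 301 in knockout, and endothelial markers at 29.7 to 31.5 against 33.1 to 43.9. No marker with a row was at 0 in every sample of its table, and the day 7 table has rows for 2 of the 6 spermatid markers. In bulk samples fewer cells of a type and less RNA per cell cannot be told apart, and the part of these shifts in the results for ribosomal protein genes was not tested.

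Canonical ribosomal protein genes made up a larger share of the adult transcriptome in the samples labelled knockout. Their summed share of TPM, which is scaled by length and has the same total in every sample, was 6.03%, 6.77% and 5.72% in wild type (6.17 ± 0.54, SD, n = 3) and 15.96%, 12.6% and 12.1% in the samples labelled knockout (13.5 ± 2.10, n = 3). The groups did not overlap, and the ratio of the means was 2.19. Large subunit genes took 3.43% and 7.42% and small subunit genes 2.74% and 6.12%, in wild type and in the samples labelled knockout. A share has the whole library as its denominator, and in wild type that library included the spermatid transcripts given above. The 11 paralogs together kept to 0.167% ± 0.0053 and 0.164% ± 0.0038, with overlap.

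**Figure D1:**
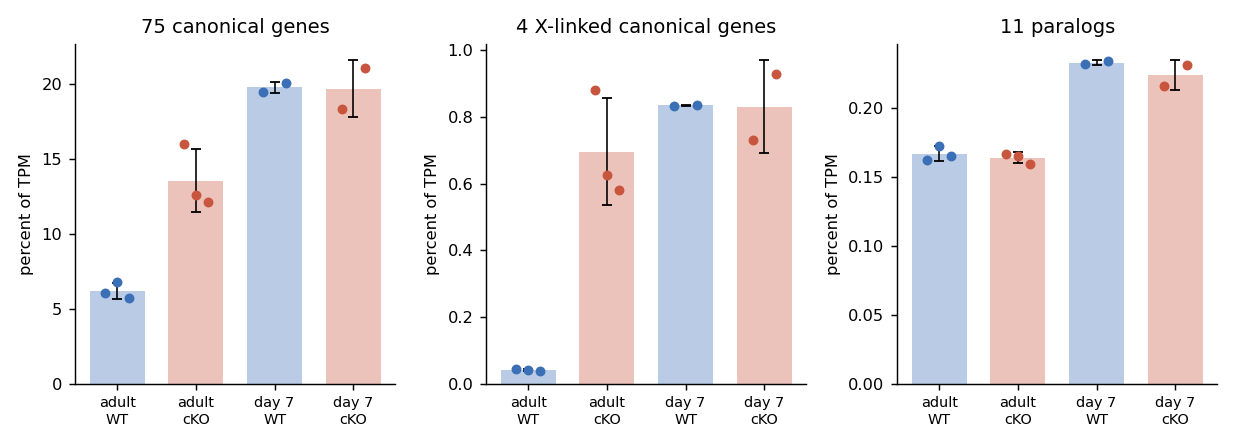
Percent of TPM taken by the 75 canonical genes, the 4 X-linked canonical genes and the 11 paralogs, by group, on axes that start at 0. Points are samples, bars are means and error bars are 1 SD (3 samples per adult group, 2 per day 7 group); the canonical share was 6.17% and 13.5% in the adult groups and 19.8% and 19.7% at day 7.

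Gene by gene, the canonical genes did not move as a block. In FPKM, 61 of the 75 were higher in every sample labelled knockout than in every wild-type sample, against 54.9% of all genes tested, and none was lower, against 32.4%. The first of these samples had the highest FPKM of all 6 in 71 genes. After TMM scaling, edgeR called 23 of 75 higher (30.7%, against 40.9% of all genes tested) and 8 lower (10.7%, against 40.6%), 12 large and 11 small subunit genes among the first and 4 of each among the second. At the thresholds of the study's methods (log2 fold change beyond 1 and adjusted p under 0.001), 5 were higher, against 23% of all genes, and none lower, against 23.7%. In TMM-scaled counts the groups did not overlap in 28 higher and 8 lower genes, against 42.4% and 43.1%. With TMM scaling, calls in either direction made up 41.3% of them and 81.5% of all genes, a difference that was not tested and that depended on the scaling. The same counts with total-count scaling were 56 higher and none lower, against 54.1% and 30% of all genes, and 15 and 11 with median-ratio scaling, against 37.6% and 43.5%. With TMM and the replicate number as a block, 18 canonical genes were called higher and 2 lower, against 38.1% and 38.6% of all genes. Their median log2 fold change lay above the median of all genes by 0.24 with TMM, 0.24 with total-count and 0.25 with median-ratio scaling, and that of the 71 autosomal ones by 0.15, 0.14 and 0.15. The count of higher genes was between 13 and 38 when 1 sample was left out, at 13 without the first or the third wild-type sample and at 38 without the first sample labelled knockout, where 39.2%, 38.6% and 44.5% of all genes were called higher. The count of lower genes fell to 1 without the second, to none without the third sample labelled knockout and to 3 without the second wild-type sample, and to 5 without the first, where 38.1%, 38.4%, 35.3% and 35.7% of all genes were called lower.

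**Figure D2:**
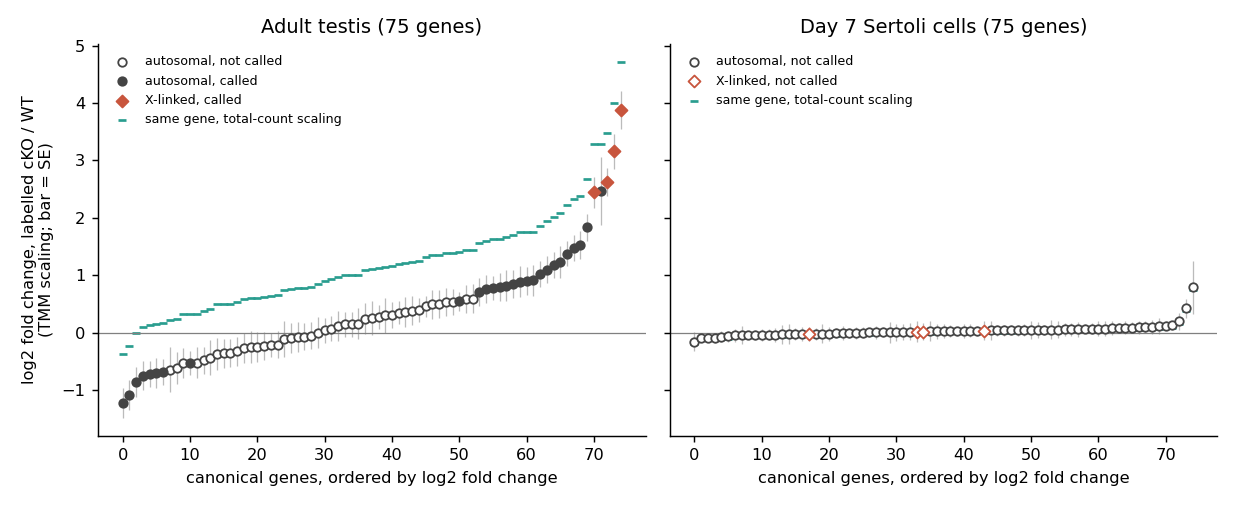
Log2 fold change (TMM scaling) of each of the 75 canonical genes with its SE, ordered within each table, for adult testis (left) and day 7 Sertoli cells (right); filled symbols passed an adjusted p of 0.05, diamonds are X-linked genes and dashes show the same gene with total-count scaling. Adult values run from −1.22 to 3.88 with 4 X-linked genes near the top, and those of day 7 run from −0.15 to 0.79 with none called.

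The 4 canonical genes on the X chromosome were among the 5 highest canonical genes in adult testis by log2 fold change. The autosomal *Rps6* (2.47) lay between *Rpl39* and *Rpl36a*. *Rps4x*, a small subunit protein gene, was at FPKM 52.10, 44.25 and 39.37 in wild type and at 1597.96, 1093.72 and 891.34 in the samples labelled knockout. *Rpl10*, whose protein joins the large subunit late in its assembly, was at 161.30, 138.74 and 124.26 against 2965.20, 2065.47 and 1799.44. No sample of either group came near the other group in these genes. *Rpl39* was at 88.14, 95.47 and 66.73 against 1145.09, 891.22 and 782.10, and *Rpl36a*, another large subunit gene, at 107.63, 117.47 and 84.88 against 1335.32, 904.26 and 826.44. The ratios of mean FPKM were 26.4 for *Rps4x*, 16.1 for *Rpl10*, 11.3 for *Rpl39* and 9.89 for *Rpl36a*. With TMM scaling the log2 fold changes in edgeR were 3.88 (SE 0.33, adjusted p = 0.000108) for *Rps4x* and 3.16 (SE 0.30, adjusted p = 0.000163) for *Rpl10*. Those of *Rpl39* and *Rpl36a* were 2.63 (SE 0.24, adjusted p = 0.000144) and 2.45 (SE 0.27, adjusted p = 0.000307). All 4 calls held with every sample left out in turn, with log2 fold changes no lower than 2.23.

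In wild-type testis these 4 genes ranked 63rd to 73rd of 75 canonical genes by FPKM, and in the samples labelled knockout they ranked 10th to 52nd. The median FPKM of the X-linked genes was 0.156 to 0.178 of that of the autosomal genes in wild type and 0.899 to 1.06 in the samples labelled knockout. At day 7 it was 0.797 to 0.883 in both groups, with ranks from 15th to 64th. The 4 genes took 0.0403% of TPM in wild-type testis and 0.695% in the samples labelled knockout (17.3-fold), and their median log2 fold change was above that of all genes by 2.88 with TMM, 2.87 with total-count and 2.89 with median-ratio scaling. X-linked genes in general were called higher in 47.9% of 758 (median 0.67), and autosomal genes in 40.8% of 15009 (median 0.02).

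**Figure D3:**
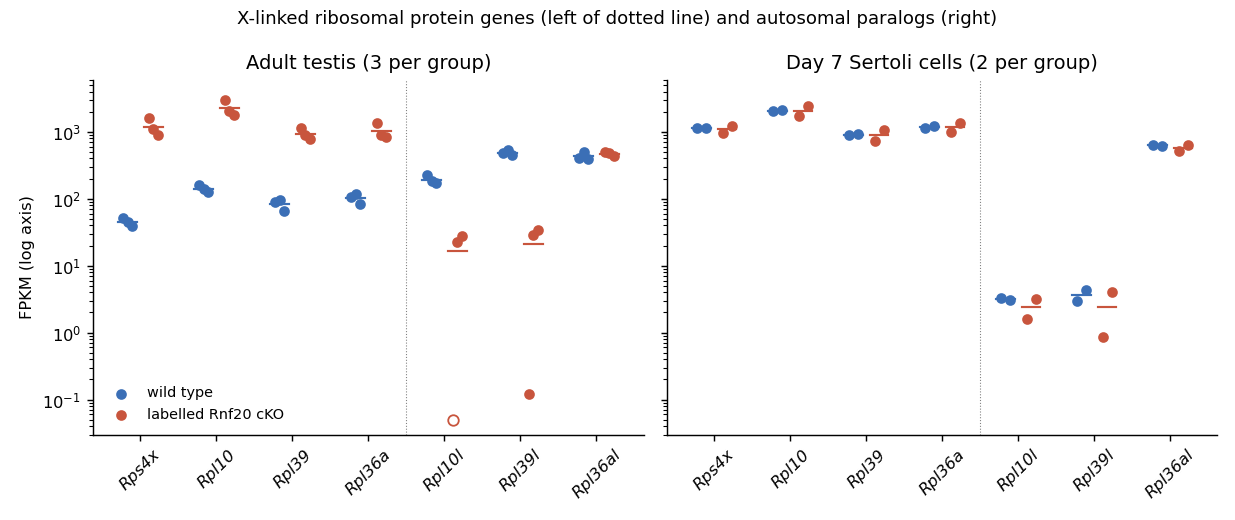
FPKM on a log axis of the 4 X-linked canonical genes and of 3 autosomal paralogs in every sample, with the group mean as a line; the open circle is *Rpl10l*, listed at 0 in the first adult sample labelled knockout and drawn at the foot of the axis. In adult testis the X-linked genes are at 39.37 to 161.30 in wild type and at 782.10 to 2965.20 in the samples labelled knockout, and *Rpl10l* and *Rpl39l* lie the other way round.

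The autosomal copies of *Rpl10* and *Rpl39* showed the opposite direction. *Rpl39l* was at FPKM 478.65, 537.60 and 455.32 in wild-type testis and at 0.12, 28.76 and 33.93 in the samples labelled knockout. *Rpl10l* was at 227.29, 181.16 and 172.36 and at 0.00, 22.60 and 27.85, which are 2888, 2272 and 2161 estimated counts against 0, 280 and 331. Both were below every wild-type sample in all 3 samples labelled knockout, and the first of these was far below the other two, as were the markers of spermatocytes in it. The log2 fold change of *Rpl39l* was −5.45 (SE 1.42, adjusted p = 0.0116) in edgeR and stayed called with each sample left out, at −5.59 to −4.48. That of *Rpl10l* was −4.42 (SE 1.41, adjusted p = 0.0254). Its call was kept without the first sample labelled knockout, at −3.45, and was lost without any one of the other 5 samples (adjusted p = 0.0588 to 0.0844), with the replicate number as a block (adjusted p = 0.0765) and with limma on FPKM + 0.1 (adjusted p = 0.0554).

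The ratio of a paralog to its parent within a library does not depend on scaling between libraries. In wild-type testis the log2 ratio of *Rpl39l* to *Rpl39* was 2.57 ± 0.18 (SD, n = 3), that of *Rpl36al* to *Rpl36a* was 2.06 ± 0.16 and that of *Rpl10l* to *Rpl10* was 0.45 ± 0.06, so that each autosomal copy was above its X-linked parent. In the samples labelled knockout the same ratios were −7.27 ± 4.40, −1.08 ± 0.29 and −9.12 ± 4.97, each copy below its parent in every sample. The differences were −9.84, −3.14 and −9.57 with 0.1 added to each FPKM, and −9.02 and −8.43 for *Rpl39l* and *Rpl10l* with 1 added. Without the first sample labelled knockout the differences for *Rpl39l* and *Rpl10l* were −7.30 and −6.71. The exact two-sided permutation p was 0.1 for each, the smallest that 3 against 3 samples can give, and 0.138 after adjustment over the 11 pairs. *Rpl22l1* to *Rpl22*, an autosomal pair, went from 1.46 to −0.07 (difference −1.53, exact p = 0.1), and *Rpl3l* to *Rpl3* fell by 1.87 (exact p = 0.1) with *Rpl3l* at FPKM 0.48 or less in every sample. Ratios that rose without overlap were those of *Rps27rt* to *Rps27* (2.39), *Rpl37rt* to *Rpl37* (2.02) and *Rpl32l* to *Rpl32* (0.59), each with an exact p of 0.1. Those of *Rpl7l1* (0.02, exact p = 0.9), *Rps27l* (0.19, exact p = 0.5) and *Rps23rg1* (0.18, exact p = 0.7) overlapped, the last being −0.55 with 1 added to each FPKM.

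**Figure D4:**
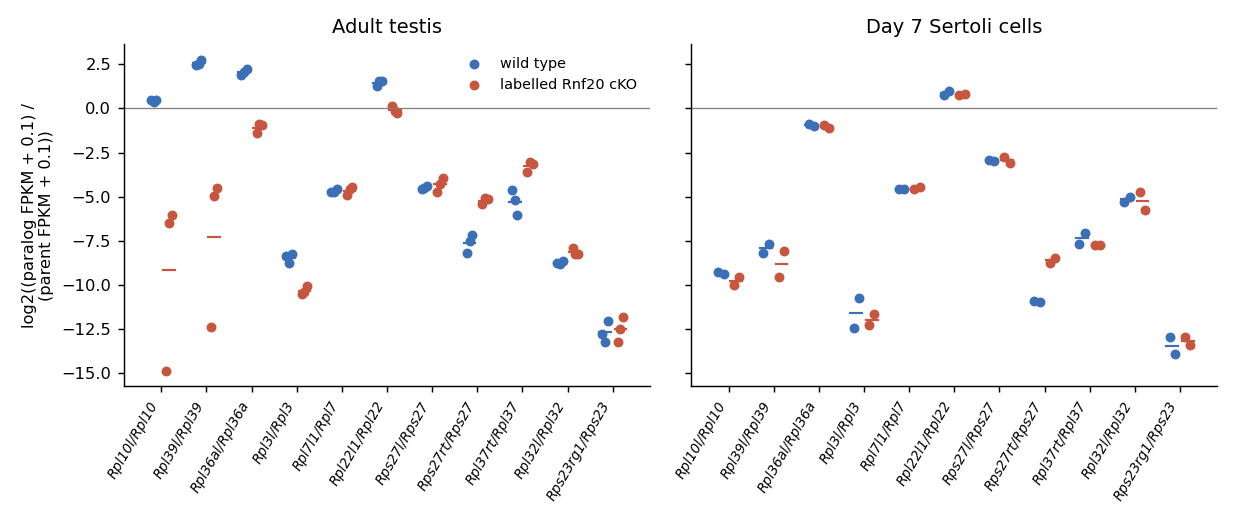
Log2 ratio of paralog to parent FPKM, each plus 0.1, for 11 pairs in every sample, with group means as lines, in adult testis (left) and day 7 Sertoli cells (right). In adult wild type the 3 pairs with an X-linked parent are at means of 0.45 to 2.57, above 0, and in the samples labelled knockout at −1.08 or below; the day 7 groups differ little beside this except for *Rps27rt*.

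The remaining paralogs were split. *Rpl36al* was at FPKM 401.38, 499.05 and 392.13 in wild-type testis and at 502.23, 489.69 and 429.00 in the samples labelled knockout, which overlap. It was called lower with TMM scaling (−0.73, SE 0.18, adjusted p = 0.00854, edgeR) and was at 0.13 with total-count scaling, and the call was lost without the second or the third sample labelled knockout (adjusted p = 0.0960 and 0.1997). *Rpl22l1*, the copy of *Rpl22*, was at 131.24, 173.88 and 141.38 against 170.11, 124.45 and 118.96 and was likewise called lower with TMM scaling (−0.97, SE 0.22, adjusted p = 0.00720, edgeR), and also with median-ratio scaling (−1.16, adjusted p = 0.00446). With total-count scaling it was at −0.11 and not called, and the TMM call was lost without the same samples (adjusted p = 0.0853 and 0.0756). Of the 9 paralogs tested, 3 were called higher and 4 lower, against 40.9% and 40.6% of all genes. *Rps27rt* was at 18.20, 32.93 and 28.47 against 210.98, 192.56 and 145.83 (1.90, SE 0.31, adjusted p = 0.00143, edgeR), and its reads cannot be told from those of *Rps27* by coding sequence. *Rpl37rt* was at 15.42, 13.02 and 4.94 against 50.70, 59.14 and 45.23 (1.35, SE 0.42, adjusted p = 0.0234), a call lost without the second wild-type sample (adjusted p = 0.0565). *Rpl7l1*, a relative of *Rpl7* that acts in ribosome assembly, was at 12.69, 13.05 and 13.47 against 39.97, 42.71 and 41.12 (0.80, SE 0.10, adjusted p = 0.000585). *Rps27l* (−0.28, adjusted p = 0.154, edgeR) and *Rpl32l* (0.12, adjusted p = 0.754) were not called with TMM. *Rps27l* was called higher with total-count scaling (0.58, adjusted p = 0.00869) and lower with median-ratio scaling (−0.48, adjusted p = 0.0382, edgeR). *Rpl32l* was called higher with total-count scaling (0.97, adjusted p = 0.0288) and was at −0.066 with median-ratio scaling.

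Among the autosomal canonical genes, large values were found for both subunits. *Rpl3*, which lies beside the peptidyl transferase center, was at FPKM 106.32, 109.01 and 110.24 in wild-type testis and at 854.39, 661.47 and 581.87 in the samples labelled knockout (1.84, SE 0.23, adjusted p = 0.000518, edgeR). *Rpl10a* was at 152.99, 172.50 and 137.14 against 998.55, 768.47 and 670.10 (1.54, adjusted p = 0.00134). In these genes the groups were apart in FPKM as in scaled counts. *Rps3*, at the mRNA entry site of the small subunit, had 1.48 (adjusted p = 0.00104), and *Rpl14* had 1.38 (adjusted p = 0.00123, edgeR). Of other parents of paralogs, *Rpl7* had 0.79 (SE 0.21, adjusted p = 0.0120) and *Rpl22* 0.55 (SE 0.17, adjusted p = 0.0207), and both calls were lost without the first wild-type sample (adjusted p = 0.0628 and 0.114) or the third (adjusted p = 0.0673 and 0.128). That of *Rpl22* was also lost with median-ratio scaling (0.35, adjusted p = 0.105), in DESeq2 (adjusted p = 0.0944) and with the replicate number as a block (adjusted p = 0.0526). *Rps27* (−0.43), *Rpl37* (−0.52), *Rpl32* (−0.53) and *Rps23* (−0.06) were not called in edgeR with TMM, with adjusted p from 0.101 to 0.817, and were above 0 with total-count scaling, where *Rps23* was called higher (0.79, adjusted p = 0.0103). *Rpl32* was called lower with median-ratio scaling (−0.72, adjusted p = 0.0473) and in DESeq2 (adjusted p = 0.0200), and *Rpl37* in DESeq2 (−0.71, adjusted p = 0.0378). *Rps27* was the canonical gene with the highest FPKM in all 6 samples, at 5268.19, 5989.07 and 4021.39 in wild type and 9089.82, 6473.67 and 5137.28 in the samples labelled knockout.

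*Rps6*, the target of the S6 kinases, stood among the 5 highest canonical genes (2.47, SE 0.59, adjusted p = 0.00784, edgeR) but had few counts on its own row. It was at FPKM 1.35, 1.15 and 1.91 against 21.21, 16.26 and 5.25, while the row of the pseudogene *Rps6-ps4* was at 603.69, 701.73 and 584.81 against 1962.04, 1386.58 and 1265.21. The pseudogene row held 97.7% to 99.7% of the estimated counts of the pair in adult testis. Which locus the reads came from cannot be told from these tables, and the same holds for *Rpl34*, with 97.5% to 98.4% of its pair on the *Rpl34-ps1* row. Adding both pseudogene rows to the canonical share gave a ratio of 2.20 in place of 2.19.

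The 5 lowest canonical genes were low relative to the TMM baseline more than in FPKM. *Rps20* was at FPKM 115.01, 129.24 and 83.57 in wild-type testis and at 95.88, 83.90 and 74.38 in the samples labelled knockout (−1.22, SE 0.26, adjusted p = 0.00470, edgeR), and *Rpl41*, the smallest ribosomal protein, at 3666.36, 4343.26 and 2727.63 against 3409.44, 2910.77 and 2968.80 (−1.08, SE 0.26, adjusted p = 0.00802). In FPKM the groups overlapped in both genes, and with total-count scaling the log2 fold changes were −0.37 and −0.22, which were not called. *Rpl26*, *Rps24* and *Rpl30* had −0.85, −0.74 and −0.71 (adjusted p = 0.0222, 0.0339 and 0.0255) and 0.01, 0.11 and 0.14 with total-count scaling, and their calls were lost with the replicate number as a block (adjusted p = 0.050004 for *Rpl30* and 0.0595 and 0.0638 for the other two). The calls of *Rpl41*, *Rpl26*, *Rps24* and *Rpl30* were lost without the second sample labelled knockout (adjusted p = 0.0800 to 0.255), those of the 5 genes without the third (adjusted p = 0.0564 to 0.367), those of *Rps24* and *Rpl30* without the second wild-type sample (adjusted p = 0.0719 and 0.0548) and that of *Rps24* without the first (adjusted p = 0.0589). The length implied by a gene's counts and FPKM, which is not its annotated length, had a Spearman correlation of 0.41 with the log2 fold change across 71 autosomal canonical genes and of 0.14 across all genes tested, given without a test since genes of a library are not independent. *Rps20*, the lowest of the 75, went against this with an implied length of 3200 bases.

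The stalk proteins, which recruit translation factors to the large subunit, were not called with TMM: *Rplp1* had 0.50 (adjusted p = 0.118) and *Rplp2* 0.46 (adjusted p = 0.0573, edgeR). Both were called higher with total-count scaling (1.35, adjusted p = 0.00148, and 1.32, adjusted p = 0.000403). *Rplp2* was also called higher without any one of the samples labelled knockout (adjusted p = 0.00120 to 0.0400), and *Rplp1* without the first or the third (adjusted p = 0.00774 and 0.0204). Their partner *Rplp0*, outside the rule, was called lower with TMM (−0.55, adjusted p = 0.0422) and was at 0.31 with total-count scaling. It was called higher with limma on FPKM (0.31, adjusted p = 0.0295 with 0.1 added and 0.0425 with 1). Its lower call was lost without the filter on low values (adjusted p = 0.0538), with any one sample left out (adjusted p = 0.0522 to 0.509) and with the replicate block (adjusted p = 0.119). Of the other genes outside the rule, *Rpsa*, a small subunit gene, was higher (1.03, adjusted p = 0.00800, edgeR). *Fau*, which joins a ubiquitin-like protein to a small subunit protein, had −0.34 (adjusted p = 0.241; 0.51 with total-count scaling) and was called higher with limma (0.51, adjusted p = 0.0479 with 0.1 added and 0.0474 with 1). *Rps19bp1* was called lower with TMM (−0.43, adjusted p = 0.0247) and higher with total-count scaling (0.43, adjusted p = 0.0377), and its TMM call was lost without any one of the samples labelled knockout (adjusted p = 0.339 to 0.883) and with the replicate block (adjusted p = 0.0706).

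Other genes of ribosome production and use were called in both directions in adult testis, where 40.9% of all genes were called higher and 40.6% lower. Of 22 ribosome biogenesis genes, 10 were called higher and 6 lower (median 0.24), among them *Dkc1*, of the pseudouridine synthase complex (2.30), *Ubtf*, a factor of RNA polymerase I (2.10), and *Ncl* (1.58) in one direction and *Wdr12* (−3.36) and *Nop2* (−1.28) in the other. Of 8 regulators, 4 were called higher and 4 lower. *Rps6kb2* (2.07), *Trp53* (1.82), *Rps6kb1* (1.46) and *Eif4ebp1* (1.13) were the higher ones, and *Larp1* (−2.33), *Mtor* (−2.07), *Mdm2* (−1.89) and *Rptor* (−0.51) the lower ones, of which *Rptor* was at 0.35 and not called with total-count scaling (adjusted p = 0.113, edgeR). Elongation factor genes gave 2 higher and 4 lower of 7 tested, with *Eef1b2* at 0.89 and *Eef1d* at −2.72, and the genes of the mitochondrial ribosome gave 27 higher and 34 lower of 78 (median −0.08, and 0.78 with total-count scaling). With total-count scaling the counts of higher and lower genes were 14 and 2, 4 and 3, 3 and 2, and 48 and 13 in the same order of lists, against 54.1% and 30% of all genes. At day 7 no gene of these lists was called.

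In day 7 Sertoli cells no canonical gene was called. The share of TPM taken by canonical genes was 19.49% and 20.03% in wild type (19.8 ± 0.38, n = 2) and 18.3% and 21.0% in *Amh-Rnf20-/-* (19.7 ± 1.89, n = 2), and the knockout samples lay on both sides of the wild-type samples. Log2 fold changes ran from −0.15 (*Rpl13a*, SE 0.16, adjusted p = 0.696) to 0.79 (*Rps6*, SE 0.46, adjusted p = 0.472), 72 of 75 lay within 0.2 of 0, and the median was 0.03 against −0.0039 for all genes. edgeR called 0% of the 12880 genes tested at an adjusted p under 0.05, and DESeq2 also called no canonical gene, where it called 3.07% of all genes higher and 1.53% lower. At an unadjusted p under 0.05 edgeR counted 1997 of all genes (15.5%) and none of the 75. The median SE of the canonical genes was 0.11.

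The small differences at day 7 were set by which knockout sample was read. The first *Amh-Rnf20-/-* sample was below both wild-type samples in FPKM in 67 of 75 canonical genes, the second was above both in 65, and both held in 59. In scaled counts the groups did not overlap in 4 genes that were higher and 2 that were lower, against 24.8% and 26.1% of all genes tested. Without the first knockout sample edgeR called 42 canonical genes higher, and without the second it called 28 lower and 1 higher. Over all genes tested, the first of these fits called 11.3% higher, and the second called 19.1% lower and 21.5% higher. In these fits the lone sample of an arm is assumed to vary as the other group does. The X-linked genes were at log2 fold changes of −0.02 to 0.04. *Rpl10*, for example, was at FPKM 2049.91 and 2087.58 in wild type and at 1726.93 and 2424.31 in knockout, and *Rps4x* at 1156.26 and 1129.02 against 968.87 and 1231.18.

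The 5 highest and 5 lowest canonical genes at day 7 included no called gene. *Rps15a*, a small subunit gene, was at FPKM 68.12 and 68.45 in wild type and at 102.46 and 76.05 in knockout, without overlap (0.43, SE 0.16, adjusted p = 0.325, edgeR), and it was called when either knockout sample was left out but not when either wild-type sample was. Without a wild-type sample edgeR called none of the genes tested, and 544 or 577 had an unadjusted p under 0.05. *Rps6* was at 4.42 and 5.40 against 4.83 and 11.77, with 98.9% to 99.5% of the counts of its pair on the pseudogene row, and was called without the first knockout sample only. *Rpl36* (0.20), *Rpl35* (0.13) and *Rps14* (0.13) followed at the upper end and *Rpl7* (−0.09), *Rps29* (−0.09), *Rpl41* (−0.08) and *Rps27a* (−0.07) at the lower end, with adjusted p from 0.518 to 0.781. *Rplp0*, *Rpsa* and *Fau*, outside the rule, were at −0.05, 0.06 and −0.09 (adjusted p from 0.753 to 0.840).

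Germ cell paralogs were low at day 7 in both groups. *Rpl10l* was at FPKM 3.27 and 3.06 in wild type and at 1.60 and 3.20 in knockout, and *Rpl39l* at 3.0 and 4.40 against 0.86 and 3.99. Both overlapped in scaled counts (−0.36, adjusted p = 0.705, and −0.47, adjusted p = 0.789, edgeR). The log2 ratio to the parent was −9.31 and −9.75 for *Rpl10l* in the 2 groups, without overlap (exact permutation p = 0.33). For *Rpl39l* it was −7.92 and −8.80, with overlap. The log2 fold change of *Rpl39l* was −1.93 without the second knockout sample and 0.24 without the first. *Rpl36al* was at 634.30 and 621.53 against 511.09 and 629.23, with a log2 ratio to *Rpl36a* of −0.92 and −1.04. With all samples in the fit, *Rps27rt* was the one paralog with a large difference. It was at 1.77 and 1.77 against 7.05 and 12.44, or 3.38 and 3.28 against 13.74 and 22.71 estimated counts. Its log2 fold change was 2.61 (SE 0.51, unadjusted p = 0.00481, adjusted p = 0.169, edgeR), and it was called without the first or the second knockout sample (adjusted p = 0.00515 and 0.0198) but not without either wild-type sample. None of the 11 ratios to the parent had an adjusted exact p under 1, the smallest exact p for 2 against 2 samples being 0.33.

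Levels of the 75 canonical genes, set side by side over tables that were made separately, are given as a description. Spearman's correlation of mean FPKM was 0.81 between adult wild type and adult samples labelled knockout, 0.75 between adult wild type and day 7 wild type, 0.93 between the adult samples labelled knockout and day 7 wild type, and 0.996 between the day 7 groups. Over the 71 autosomal genes the values were 0.88, 0.78, 0.94 and 0.996 in the same order. These correlations run across genes, which share libraries, lengths and scaling.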

How the data were processed

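RNA-seq of 6 adult testis and 4 day 7 Sertoli cell samples was analysed in 2 tables, each on its own because they were made separately. Per the study's methods, the authors used HISAT for alignment to the GRCm38.p6 genome, Bowtie2 for alignment to genes and RSEM for quantification. Their versions and whether strand was used are not given in the sources used here, and the adult experiment is not described there. The deposited tables give for each sample an estimated count per gene without normalization, an FPKM, corrected for depth and for the length of the gene, and a TPM, with one fixed total per sample. A further 20 columns for adult testis were empty and were left aside.

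Samples were grouped from their labels. Estimated counts were rounded and tested with edgeR's quasi-likelihood test, TMM scaling and Benjamini-Hochberg adjustment over the genes that reached FPKM 0.5 in at least one group's number of samples. The SE was computed as the absolute log2 fold change over the square root of F. The fit was tested on simulated data. Ratios of paralog to parent used log2 of FPKM + 0.1 and an exact two-sided permutation test, adjusted over the 11 pairs of a table, and shares used TPM. No overlap was judged on TMM-scaled counts unless FPKM is named. Counts were taken as whole within 1e-06.

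The members and gene lists were chosen with earlier results of these data known. The rule for named genes covers *Rnf20*, every paralog with its parent, the X-linked canonical genes, the 5 highest and 5 lowest canonical genes of each table, the gene with the highest FPKM, *Rplp1*, *Rplp2*, *Rplp0*, *Rpsa*, *Fau* and *Rps19bp1*, and 1 gene under it is not reported here; *Rpl10a*, *Rps3*, *Rpl14*, *Rpl34* and the named genes of the pathway lists were chosen after their values were seen. Promoters and coordinates come from RefSeq (GRCm38.p6) and coding sequences from GENCODE (GRCm38). The design named protein identity, and identity of coding sequences was used in its place. Of the members, all 87 were matched to RefSeq by gene ID, and 55 canonical genes and 11 paralogs had a promoter; *Rpl37rt* and *Rpl32l* had no coding sequence here, and *Rps4l* was not analysed here.

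Alternatives were total-count and median-ratio scaling, TMM without ribosomal protein genes, DESeq2, limma on log2 of FPKM + 0.1 or + 1, other filters, the thresholds of the study's methods (log2 fold change over 1 and adjusted p under 0.001), the replicate number as a block and each sample left out. The share with pseudogene rows, the counts without genes that share reads and the alternatives of named genes other than paralogs, their parents and *Rps4x* were chosen after seeing the data. Tools were R 4.3.3, edgeR 4.0.16, limma 3.58.1, DESeq2 1.42.0, Python 3.11.15, pandas 2.3.3, numpy 2.4.6, scipy 1.17.1 and matplotlib 3.10.9.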

Additional observations from a re-analysis of the deposited data

Results flagged for a closer look

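Opposite directions in the adult and day 7 tables, with every sample of one table moved one way and every sample of the other the opposite way, were found for 2 results, and the differences were not tested. The log2 ratio of *Rpl37rt* to *Rpl37* differed by 2.02 in adult testis and by −0.364 in day 7 Sertoli cells, where it differed by −0.0384 without the second wild-type sample. The log2 fold change of *Rpl7* was 0.79 in adult testis and −0.0914 at day 7. Neither of the day 7 values passed its test in edgeR or by exact permutation, and the tables differ in tissue, age and culture.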

How the results depend on the processing

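Adult directions depended on scaling. The counts of canonical genes called higher and lower in adult testis, 23 and 8, were 56 and 0 with total-count scaling, 58 and 0 with limma at either pseudocount, 15 and 11 with median-ratio scaling, 19 and 12 with DESeq2 and 5 and 0 at the study's thresholds. Over all genes limma called 53.5% or 53.6% higher and 30.7% or 31.2% lower, and DESeq2 38.2% and 44.2%. Their median log2 fold change, 0.26, was 1.11 with total-count scaling, 1.12 and 1.11 with limma and 0.065 with median-ratio scaling. Leaving out 1 sample gave 13 to 38 higher, 0 to 8 lower and a median of 0.034 to 0.71, and at day 7 0 to 42 higher, 0 to 28 lower and a median of −0.10 to 0.17, where a lone sample is assumed to vary like the other group. The day 7 median of 0.030 was −0.0087 with total-count scaling and −0.017 with limma. The replicate number as a block left 18 higher and 2 lower in adult testis, against 38.1% and 38.6% of all genes, took the adjusted p of *Rpl10l* to 0.0765 and called none at day 7. Deviations of same-numbered samples correlated at 0.0156 to 0.0246 in adult testis and at 0.0383 at day 7, too weak to pair them. Every adult sample correlated best with its own number. At day 7 the deviations of the 2 samples of a group mirror each other, so all pairs give the same correlation with either sign. Of the 75 canonical genes, 27 turned sign in adult testis with total-count scaling or limma and 7 with median-ratio scaling or DESeq2, and 18 did at day 7 with total-count scaling and 24 with limma. Among the genes compared under every alternative, signs turned in adult testis with total-count scaling for *Rpl36al* (0.13), *Rps27l* (0.58), *Rps27* (0.41), *Rpl37* (0.33), *Rpl32* (0.33), *Rps23* (0.79), *Rpl26* (0.0052), *Rps24* (0.11), *Rpl30* (0.14), *Rplp0* (0.31), *Fau* (0.51) and *Rps19bp1* (0.43), and with limma at FPKM + 0.1 or + 1 for the same genes (in this order 0.14, 0.61, 0.42, 0.33, 0.34, 0.79 or 0.78, 0.018, 0.28 or 0.27, 0.14, 0.31, 0.51, 0.43 or 0.41). With median-ratio scaling and with DESeq2, *Rpl32l* was at −0.066 and −0.067 and *Rnf20* at −0.075. At day 7 signs turned near 0 with total-count scaling for *Rpl39* (−0.016), *Rpl36a* (−0.015), *Rpl22* (−0.025) and *Rps23* (−0.021), as well as for *Rps19bp1* (−0.021), *Rpl30* (−0.025) and *Rps3* (−0.0087), with limma for the same genes (in this order −0.038, −0.029, −0.038, −0.034, −0.019, −0.049 and −0.013) and for *Rpl10* (−0.016), and for *Rpl32l* with median-ratio scaling, DESeq2 and a mean FPKM of at least 1 (0.0048, 0.0050 and 0.0019). Leaving out 1 sample also turned signs in adult testis for *Rps27l* (−0.48 to 0.10), *Rps27* (−0.66 to 0.073), *Rpl32l* (−0.043 to 0.63), *Rps23* (−0.24 to 0.40), *Fau* (−0.53 to 0.12) and *Rnf20* (−0.060 to 0.59), and at day 7 for *Rpl10l* (−0.92 to 0.047), *Rpl10* (−0.20 to 0.26), *Rpl39l* (−1.93 to 0.24), *Rpl39* (−0.24 to 0.25), *Rpl36al* (−0.22 to 0.014), *Rpl36a* (−0.18 to 0.21), *Rpl3* (−0.15 to 0.093), *Rpl7l1* (−0.14 to 0.072), *Rpl22l1* (−0.23 to 0.11), *Rpl22* (−0.19 to 0.20), *Rps27* (−0.13 to 0.24), *Rpl37rt* (−0.65 to 0.066), *Rpl37* (−0.062 to 0.18), *Rpl32l* (−0.46 to 0.36), *Rpl32* (−0.046 to 0.15), *Rps23* (−0.18 to 0.20), *Rps4x* (−0.18 to 0.14), *Rpl13a* (−0.37 to 0.053), *Rpl41* (−0.17 to 0.0036) and *Rps27a* (−0.16 to 0.032). The cause was not tested, other than that total-count scaling and FPKM carry no TMM factors. Counts were lowest for *Rps6*, at 21.46 to 35.37 in adult wild type, among the canonical genes.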
